A study of Mus musculus with 16 samples.

Results

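Bone marrow-derived macrophages (BMDMs) grown with M-CSF were compared for one quantity, the difference between 2 kinds of culture dish in how strongly each gene responded to LPS. For each gene, the LPS response on noTC dishes (M-noTC-LPS over M-noTC) minus the LPS response on TC dishes (M-TC-LPS over M-TC) was taken on the log2 scale, so that a negative value stands for a smaller rise or a deeper fall on noTC dishes. This difference is called the interaction in what follows. Genes were included where the mean was 1 CPM or more (CPM being counts scaled by the library total) in all 4 groups, which held for 9868 of the 22287 genes in the table and for 9868 of the 11835 genes that could be tested. The bone marrow came from C57BL/6J mice 8 weeks old and was grown for 7 days with 50 ng/ml M-CSF. A TC dish carries the usual tissue culture treatment that makes plastic hydrophilic and lets cells attach, and a noTC dish is untreated, hydrophobic plastic on which cells hold less firmly. M-TC and M-noTC received vehicle, and M-TC-LPS and M-noTC-LPS received 100 ng/ml LPS for 3 h. Each group had 2 biological replicates, 8 libraries in all, and RNA of the whole culture was sequenced, so fewer cells of a kind and less RNA per cell cannot be told apart. The labels do not tie the replicates to mice or to culture days, and p-values measure only the spread between these libraries.

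LPS is recognised by TLR4 together with CD14. Through the adaptors MyD88 and TRIF it activates NF-kB and the MAP kinases, which turn on cytokines, chemokines and immediate early genes within the first hours, and IRF3, whose product interferon beta then turns on the interferon stimulated genes. M-CSF, acting on the receptor Csf1r, keeps macrophages alive and cycling through ERK and AKT. Integrin attachment feeds into the same ERK pathway and into the actin-sensitive serum response factor (SRF), which binds the CArG box. NRF2, the regulator of antioxidant genes, acts through the antioxidant response element.

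The libraries held 18053977 to 31458363 counts, so that 3 counts correspond to 0.0954 to 0.166 CPM, a floor that covers counting error only. All 10 macrophage markers, among them Csf1r, Cd68 and Adgre1, were members, and their summed level was 19864 to 35974 CPM. The untreated M-TC libraries stood apart from the other M-CSF libraries in 2 respects. First, the 30 heart muscle markers summed to 140.4 and 202.8 CPM in M-TC against 62.3 to 78.7 CPM in the other 6 libraries. Only 2 of the 30 markers were members, one of them Tpm1. Outside M-TC the sum was mostly Tpm1 and Fabp3, for instance 68.9 and 7.26 CPM in M-noTC. Myh6 had 23.6 CPM in M-TC and 0 in each other M-CSF group, and Actc1 had 12 and 0. Second, the other 6 libraries carried a low level of every gene that is abundant elsewhere in the series. For genes at 100 CPM or more in other libraries, the lowest share found was 0.438% to 0.648% of that level in those 6 libraries and 0% in both M-TC libraries. A set of 19 genes was under 1 CPM in both M-TC libraries and at 100 CPM or more on average elsewhere, and in M-noTC these genes held a common share of 0.600% of the level elsewhere, within 1.5-fold for 17 of them. None of the 19 genes was a member. Such a level lowers the computed response on noTC dishes of a gene that is nearly silent before LPS and abundant after it. All interactions were therefore also computed after 0.600% of the other libraries' mean was subtracted from M-noTC. The libraries after LPS, which carried such a level too, were left as they were. Both values are given below for each gene whose value moved by more than 0.1. The share was taken as exact, although single genes of the 19 held from 0.265% (Cd38) to 0.845% (Ccl17), apart from 0.0084% for Rbp4. For genes nearly silent before LPS and abundant after it, the values and p after the subtraction leave out this spread and are uncertain. The counts of calls in a list moved by at most 1 in either direction, except for 3 lists, cytokines, chemokines and interferon stimulated genes, for which both counts are given.

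LPS changed most of these genes on both dishes. On TC dishes 3968 members rose and 4002 fell upon LPS challenge, against 36.9% and 41.5% of all tested genes, and on noTC dishes 4004 rose and 3865 fell, against 37.3% and 39.6%. The interaction passed an adjusted p of 0.05 for 1605 members (16.3%), where 14.2% of all tested genes passed. The noTC response was higher for 685 members (6.94%, against 6.08% of tested genes) and lower for 920 (9.32%, against 8.15%). The median interaction over all members was 0.01, and the median size among the called members was 0.41 where the noTC response was higher and 0.38 where it was lower. Of these, 19 and 57 differed by more than 1, that is, by more than 2-fold. The ranges of the responses, from the lowest LPS library over the highest untreated one to the highest LPS library over the lowest untreated one, did not overlap between dishes for 1603 of the 1605 called members and for 42.6% of all members.

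**Figure D1:**
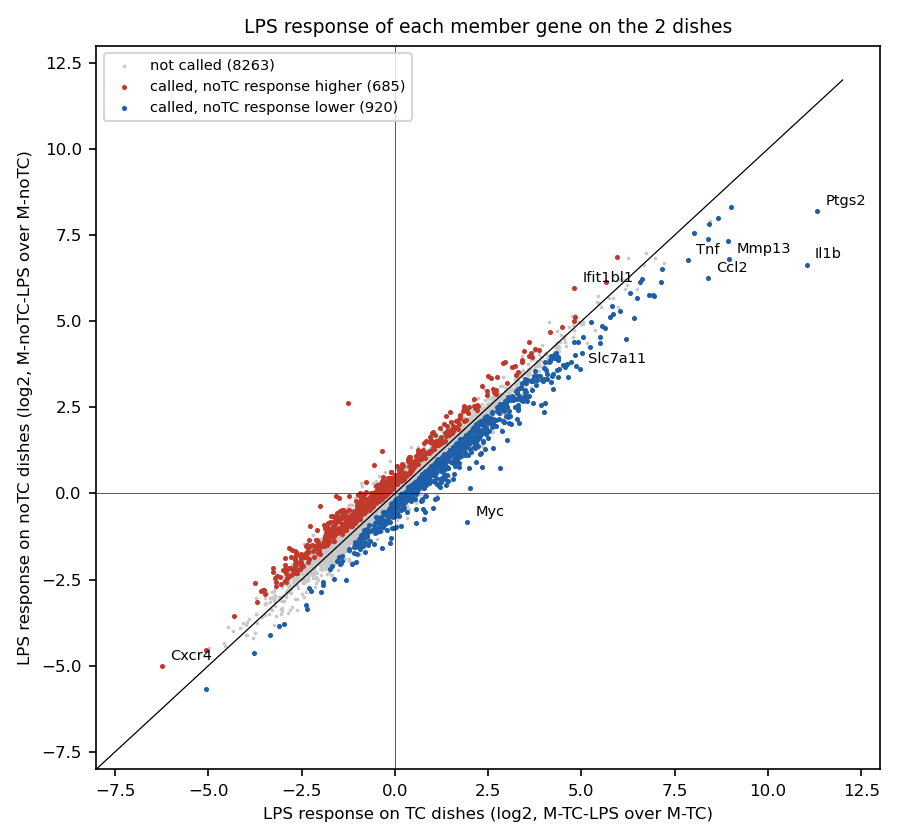
LPS response of each of the 9868 members on TC dishes (horizontal, log2) and noTC dishes (vertical, log2), with the line of equal responses. The 685 genes called with a higher noTC response (red) and the 920 called with a lower one (blue) lie on either side of the line, and Il1b, Ptgs2 and Myc lie farthest below it.

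The largest class was a smaller induction. Of the 920 genes with a lower noTC response, 680 had a response above 0 on both dishes, 143 had one below 0 on both, and 97 were above 0 on TC and below 0 on noTC dishes. Of the 685 genes with a higher noTC response, 389 had a response below 0 on both dishes, 198 had one above 0 on both, and 98 were below 0 on TC and above 0 on noTC dishes. In both directions together, 1069 of the 1605 genes had responses of the same sign on both dishes and a smaller one on noTC. That they were smaller follows from the direction of the call and these signs. In 755 of the 920 genes M-noTC was above M-TC before LPS, and in 746 M-noTC-LPS was below M-TC-LPS. In 632 of the 685 genes M-noTC was below M-TC before LPS, and in 541 M-noTC-LPS was above M-TC-LPS. These orders are partly built in, because the interaction is the dish difference after LPS minus that before LPS. The same counts over all members were not made. The distance between the dishes was larger before LPS for 447 of the 920 genes and 375 of the 685. After the subtraction 851 of the 920 genes and 671 of the 685 were still called in the same direction. Counts were taken from M-noTC only, so apart from scaling the subtraction can only raise an interaction. Genes called higher were thus hardly open to losing their direction. The size of the interaction moved by over 0.5 for 13 of the 920 and for 0 of the 685.

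**Figure D2:**
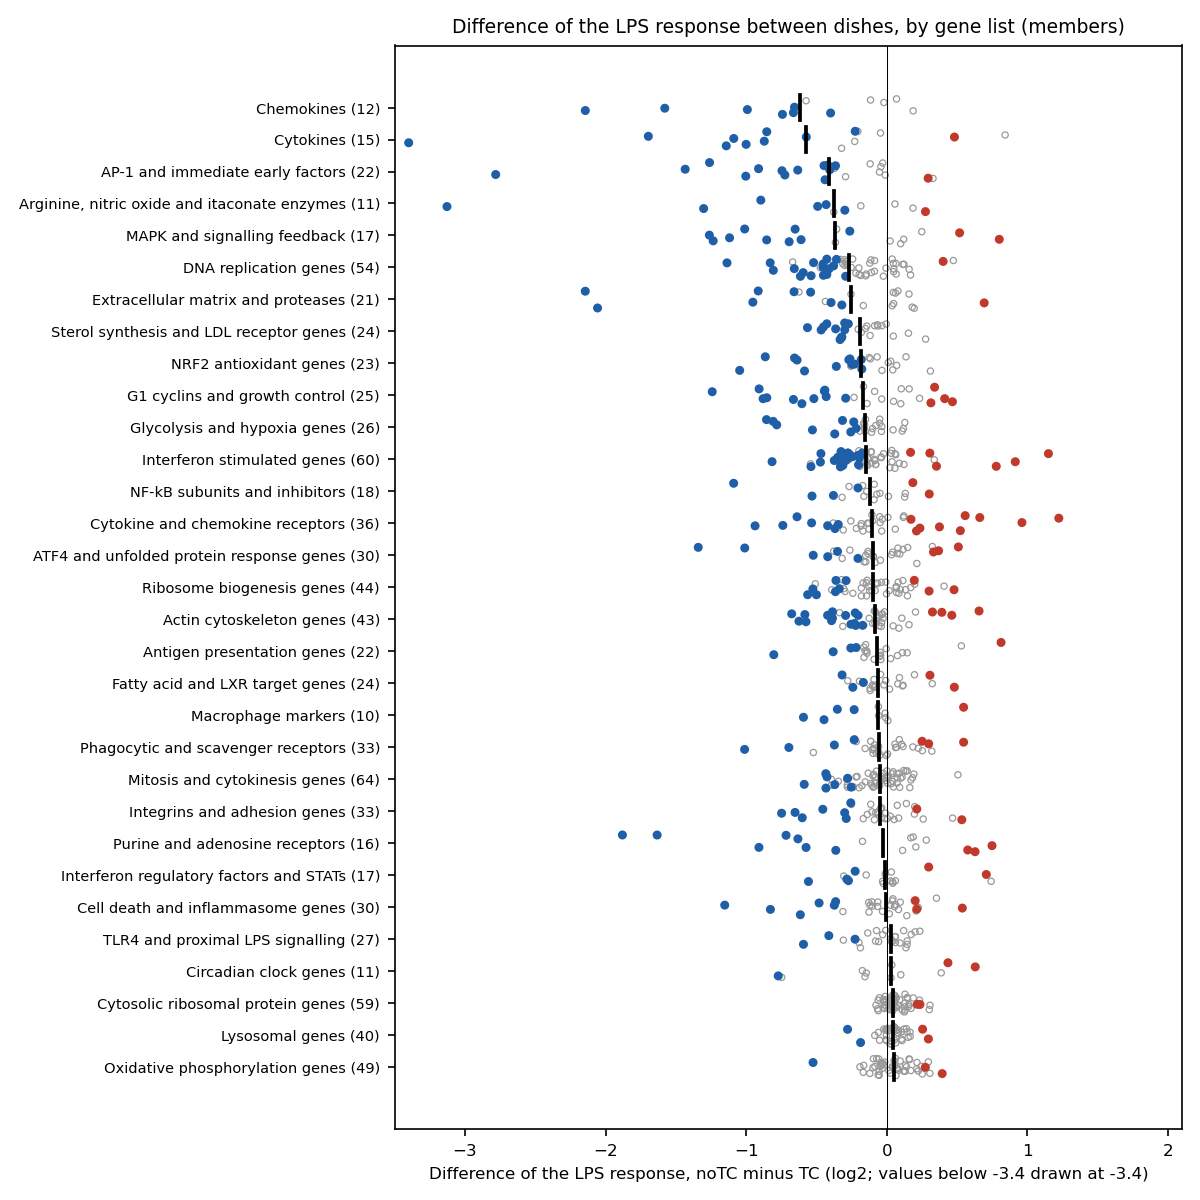
Interaction (log2, noTC minus TC) of the members of each gene list with 10 or more members, the number in brackets. Points are genes, filled where called and open where not, and the black bar is the list's median. Medians run from -0.61 for chemokines to 0.05 for oxidative phosphorylation genes.

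Among the cytokines, 9 of 15 members had a lower noTC response and 1 a higher one (66.7% called, against 16.3% of all members). Over all members 9.32% were called lower and 6.94% higher. The median interaction of the cytokines was -0.57 against 0.02 over all tested genes. Il1b (ENSMUSG00000027398), the inflammatory cytokine made by activated macrophages, had 0.826 and 1.22 CPM on TC and 15.3 and 12.8 CPM on noTC dishes before LPS, and 2082 and 2261 CPM on TC and 1334 and 1436 CPM on noTC dishes after it. Both untreated M-noTC libraries were above both M-TC libraries, and both M-noTC-LPS libraries were below both M-TC-LPS libraries. The response was 11.04 ± 0.10 on TC and 6.64 ± 0.07 on noTC dishes, and the interaction was -4.40 ± 0.18 (SE, adjusted p = 8.18e-12). After the subtraction it was -1.57 (adjusted p = 0.0308), so the subtraction took away most of its size. What remained, and its p, take the share of 0.600% as exact. The level after LPS, which does not involve the untreated libraries, was -0.65 ± 0.05 on noTC relative to TC (log2). Il1rn, the antagonist of the same receptor, had an interaction of -1.70 ± 0.09 (SE, adjusted p = 9.22e-10), and -1.43 after the subtraction. It was above on noTC before LPS, and after LPS the noTC libraries were slightly below, at -0.04 ± 0.05 (log2).

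Tnf (ENSMUSG00000024401), the early cytokine of the LPS response, had 29.0 and 28.4 CPM on TC and 54.1 and 52.3 CPM on noTC dishes before LPS, and 6642 and 6643 CPM on TC and 5624 and 5944 CPM on noTC dishes after it. The dishes did not overlap before or after LPS, with noTC above TC before and below it after. The interaction was -1.09 ± 0.06 (SE, adjusted p = 9.22e-10), and -0.65 (adjusted p = 1.92e-06) after the subtraction. Gdf15, a stress-induced member of the TGF-beta family, was close between dishes before LPS and lower on noTC after it, at 8.05 CPM on TC and 8.37 on noTC dishes before LPS, and 20.9 and 9.88 after it. Its interaction was -1.14 (adjusted p = 6.12e-05), unchanged at -1.14 by the subtraction. The others called lower were Tnfsf15, Tnfsf9, Pdgfb, Vegfa and Tgfb1, and the 1 called higher was Tnfsf10. Il10, the anti-inflammatory cytokine, had an interaction of 0.84 (adjusted p = 0.0534), which missed the threshold, and 0.94 (adjusted p = 0.0377) after the subtraction. With the subtraction, 8 cytokines were called lower and 3 higher, and the median was -0.29.

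Among the chemokines, 7 of 12 members had a lower noTC response and 0 a higher one (58.3% called, against 16.3% of all members). Their median was -0.61. Ccl2 (ENSMUSG00000035385), which draws monocytes through Ccr2, had 3.48 and 3.98 CPM on TC and 22.9 and 19.5 CPM on noTC dishes before LPS, and 1214 and 1305 CPM on TC and 1567 and 1637 CPM on noTC dishes after it. Unlike Il1b and Tnf, it was above on noTC dishes both before and after LPS, and the distance between dishes was the larger before. The interaction was -2.14 ± 0.13 (SE, adjusted p = 1.43e-09), and -1.85 (adjusted p = 1.03e-07) after the subtraction. Cxcl2, which draws neutrophils, had an interaction of -1.58 (adjusted p = 7.31e-07) that became -0.69 (adjusted p = 0.0125). For Ccl5, which draws T cells, -0.99 (adjusted p = 7.93e-06) became -0.14 (adjusted p = 0.531) and was no longer called. For Cxcl10, an interferon-induced ligand of Cxcr3, -0.66 (adjusted p = 4.46e-06) turned to 0.35 (adjusted p = 0.0217). In all, 3 chemokines were called lower and 2 higher after the subtraction, with a median of -0.14. The counts of chemokines thus depended on the subtraction.

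**Figure D3:**
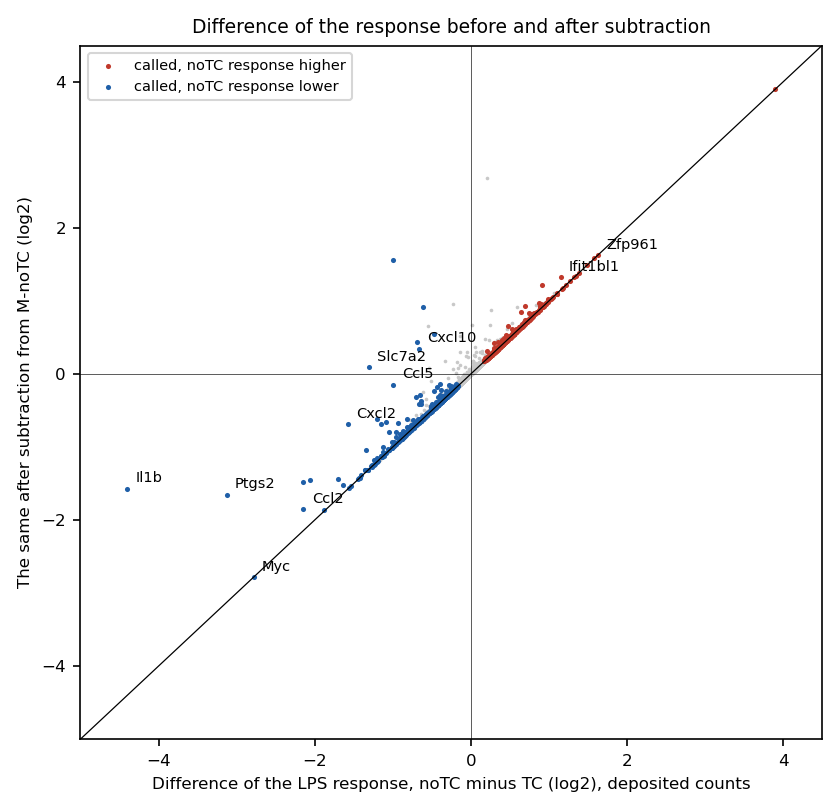
Interaction of each member (log2, noTC minus TC) from the deposited counts (horizontal) and after 0.600% of the other libraries' mean was subtracted from M-noTC (vertical), with the line of equal values. Most genes lie on the line, while Il1b, Ptgs2, Cxcl2, Ccl5, Slc7a2 and Cxcl10 lie above it.

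Ptgs2, the inducible cyclooxygenase of prostaglandin synthesis, had 1.61 and 1.3 CPM on TC and 13.9 and 11.3 CPM on noTC dishes before LPS, and 3507 and 3916 CPM on TC and 3365 and 3911 CPM on noTC dishes after it. After LPS the dishes overlapped, and before LPS both noTC libraries were above both TC libraries. The interaction was -3.13 ± 0.21 (SE, adjusted p = 9.29e-09). It was -1.65 (adjusted p = 0.00162) after the subtraction. Ptges, which makes prostaglandin E2 from the product of Ptgs2, had the opposite order, close before LPS and lower on noTC after it (2.69 CPM on TC and 2.76 on noTC dishes before LPS, and 63.6 and 35.6 after it). The interaction was -0.90 (adjusted p = 0.00924), and -0.85 after the subtraction. Slc7a2, an arginine importer, had an interaction of -1.30 (adjusted p = 3.67e-06) that was 0.09 (adjusted p = 0.837) after the subtraction. Ass1, which remakes arginine from citrulline, had -0.49 (adjusted p = 0.00193) and -0.43. Ptgs2 and Ptges stand in the list of arginine, nitric oxide and itaconate enzymes. Altogether 6 of its 11 members were called lower and 1 higher (63.6% called, against 16.3% of all members), or 5 and 1 after the subtraction.

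Several LPS-induced genes were not members because M-TC, or both untreated groups, lay under the minimum of 1 CPM. Il6 had group means of 0.0217 CPM on TC and 6.06 on noTC dishes before LPS, and 1542 and 1498 after it, and Il12b, the shared subunit of IL-12 and IL-23, had 0 CPM on TC and 5.32 on noTC dishes before LPS, and 536 and 333 after it. Nos2, the inducible nitric oxide synthase, had 0.526 CPM on TC and 3.18 on noTC dishes before LPS, and 1253 and 1318 after it. After LPS the dishes were close for Il6 and Nos2, while Il12b was lower on noTC. Il1a had 0.442 CPM on TC and 13.5 on noTC dishes before LPS, and 519 and 489 after it. These 4 genes belong to the set of 19 from which the share of 0.600% was taken, so their M-noTC values are at that low level. For Nos2 the interaction was -2.48 (adjusted p = 8.23e-07), and -0.20 (adjusted p = 0.856) after the subtraction, and for Il1a -4.97 (adjusted p = 8.39e-10) and -1.95 (adjusted p = 0.24). For Il6 and Il12b M-TC lay under the floor of 3 counts, and no fold is given. Ifnb1, encoding interferon beta, had 0.0855 CPM on TC and 0.0247 on noTC dishes before LPS, and 6.93 and 15.7 after it, and both noTC libraries after LPS were above both TC libraries. Il23a stayed at 0 to 2.36 CPM in the group means and Arg1 did not exceed 0.954 CPM in any group.

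Of 27 members of the list for the receptor and the first steps of the LPS pathway, 3 were called lower and 0 higher, with a median of 0.03. These calls were 11.1% of the list, where 16.3% of all members were called and 9.32% were called lower. Tlr4 itself had an interaction of 0.09 (adjusted p = 0.366). Cd14, which hands LPS to TLR4, had 470.2 and 456 CPM on TC and 584 and 606 CPM on noTC dishes before LPS, and 2265 and 2238 CPM on TC and 1867 and 1973 CPM on noTC dishes after it and an interaction of -0.59 ± 0.05 (SE, adjusted p = 4.2e-07). Before LPS it was above on noTC dishes and after LPS below, without overlap at either time. Irak3, an inhibitor of the pathway that macrophages induce, had -0.41 (adjusted p = 0.00421), and the adaptor Myd88 had -0.23 (adjusted p = 0.0171). Among NF-kB subunits and inhibitors, 4 of 18 were called lower and 2 higher (33.3% called, against 16.3% of all members). Tnip3, an inhibitor that works with A20, had 81.1 and 81.0 CPM on TC and 116 and 122 CPM on noTC dishes before LPS, and 685 and 706 CPM on TC and 498 and 466 CPM on noTC dishes after it, with an interaction of -1.09 ± 0.06 (SE, adjusted p = 1.47e-09). Nfkbid had -0.53, and Tnfaip3, which encodes A20, had -0.38 (adjusted p = 0.000247), and -0.22 (adjusted p = 0.0237) after the subtraction. Nfkbiz, a nuclear co-activator of secondary response genes, had 0.30 in the other direction, and 0.43 after the subtraction.

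Immediate early factors and AP-1 subunits had a lower noTC response in 13 of 22 members and a higher one in 1 (63.6% called, against 16.3% of all members). Their median of -0.41 was also -0.41 after the subtraction. Myc (ENSMUSG00000022346), which drives growth and cell cycle entry, had 3.91 and 5.89 CPM on TC and 15.4 and 17.2 CPM on noTC dishes before LPS, and 19.4 and 18.5 CPM on TC and 8.60 and 9.67 CPM on noTC dishes after it. LPS raised it on TC dishes and lowered it on noTC dishes, so that the order of the dishes was reversed after LPS without overlap at either time. The response was 1.94 ± 0.14 on TC and -0.84 ± 0.13 on noTC dishes, and the interaction was -2.78 ± 0.19 (SE, adjusted p = 1.29e-08), unchanged at -2.78 by the subtraction. Egr2 (ENSMUSG00000037868), an ERK-induced zinc finger factor, had 5.56 and 6.21 CPM on TC and 14.3 and 12 CPM on noTC dishes before LPS, and 12.8 and 10.9 CPM on TC and 9.56 and 9.88 CPM on noTC dishes after it. Before LPS both noTC libraries were above both TC libraries, and after LPS both were below. Its interaction was -1.43 ± 0.19 (SE, adjusted p = 2.71e-05).

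Fosl2, an AP-1 subunit, had 24.0 and 24.1 CPM on TC and 27.4 and 28.6 CPM on noTC dishes before LPS, and 50.2 and 52.1 CPM on TC and 26.1 and 23.8 CPM on noTC dishes after it. LPS raised it on TC dishes, from levels that were close. The interaction was -1.26 ± 0.10 (SE, adjusted p = 6.55e-08). Fos, the classical immediate early gene, had 13.5 and 14.5 CPM on TC and 30.7 and 32.6 CPM on noTC dishes before LPS, and 14.2 and 14.2 CPM on TC and 17.8 and 14.2 CPM on noTC dishes after it. M-noTC stood high, and the other groups were close. Its interaction was -1 ± 0.14 (SE, adjusted p = 7.79e-05). Ier2, Junb, Ier3, Atf3, Srf, Klf4, Jun and Jund were among the others called lower. Maf was the 1 gene called higher.

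MAP kinase phosphatases and other signalling feedback genes were called lower for 9 of 17 members and higher for 2 (64.7% called, against 16.3% of all members). Their median was -0.37. Dusp1 (ENSMUSG00000024190), which inactivates p38 and JNK, had 6.65 and 7.23 CPM on TC and 9.53 and 9.87 CPM on noTC dishes before LPS, and 30.2 and 32.7 CPM on TC and 18.6 and 18.0 CPM on noTC dishes after it. It was somewhat above on noTC before LPS and clearly below after. Its interaction was -1.26 ± 0.14 (SE, adjusted p = 3.89e-06), and -1.25 after the subtraction. Dusp4, which inactivates ERK, had 39.0 and 38.4 CPM on TC and 70.6 and 67.9 CPM on noTC dishes before LPS, and 57.5 and 56.4 CPM on TC and 48.8 and 52.3 CPM on noTC dishes after it. It rose on TC and fell on noTC dishes, with a response of 0.56 ± 0.06 on TC and -0.45 ± 0.06 on noTC dishes, and the interaction was -1.01 (adjusted p = 9.66e-08). Spred2, an inhibitor of RAF activation, had 19.7 and 19.9 CPM on TC and 47.7 and 43.7 CPM on noTC dishes before LPS, and 14.8 and 16.7 CPM on TC and 15.5 and 15.1 CPM on noTC dishes after it. It was above on noTC dishes only before LPS, and the libraries after LPS overlapped. Its interaction was -1.23 ± 0.12 (SE, adjusted p = 1.06e-06). Etv5, an ETS factor induced by ERK and outside the list, was above on noTC dishes at both times and by far less after LPS, with 17.8 CPM on TC and 48.5 on noTC dishes before LPS, and 16.3 and 17.8 after it and an interaction of -1.32 (adjusted p = 2.88e-07). Dusp5, another ERK phosphatase, had -1.12 (adjusted p = 0.0118) at a low level. Socs3, a cytokine signalling inhibitor, was called lower from the deposited counts and higher after the subtraction, and Rgs2 and Zfp36l2 were called higher.

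**Figure D4:**
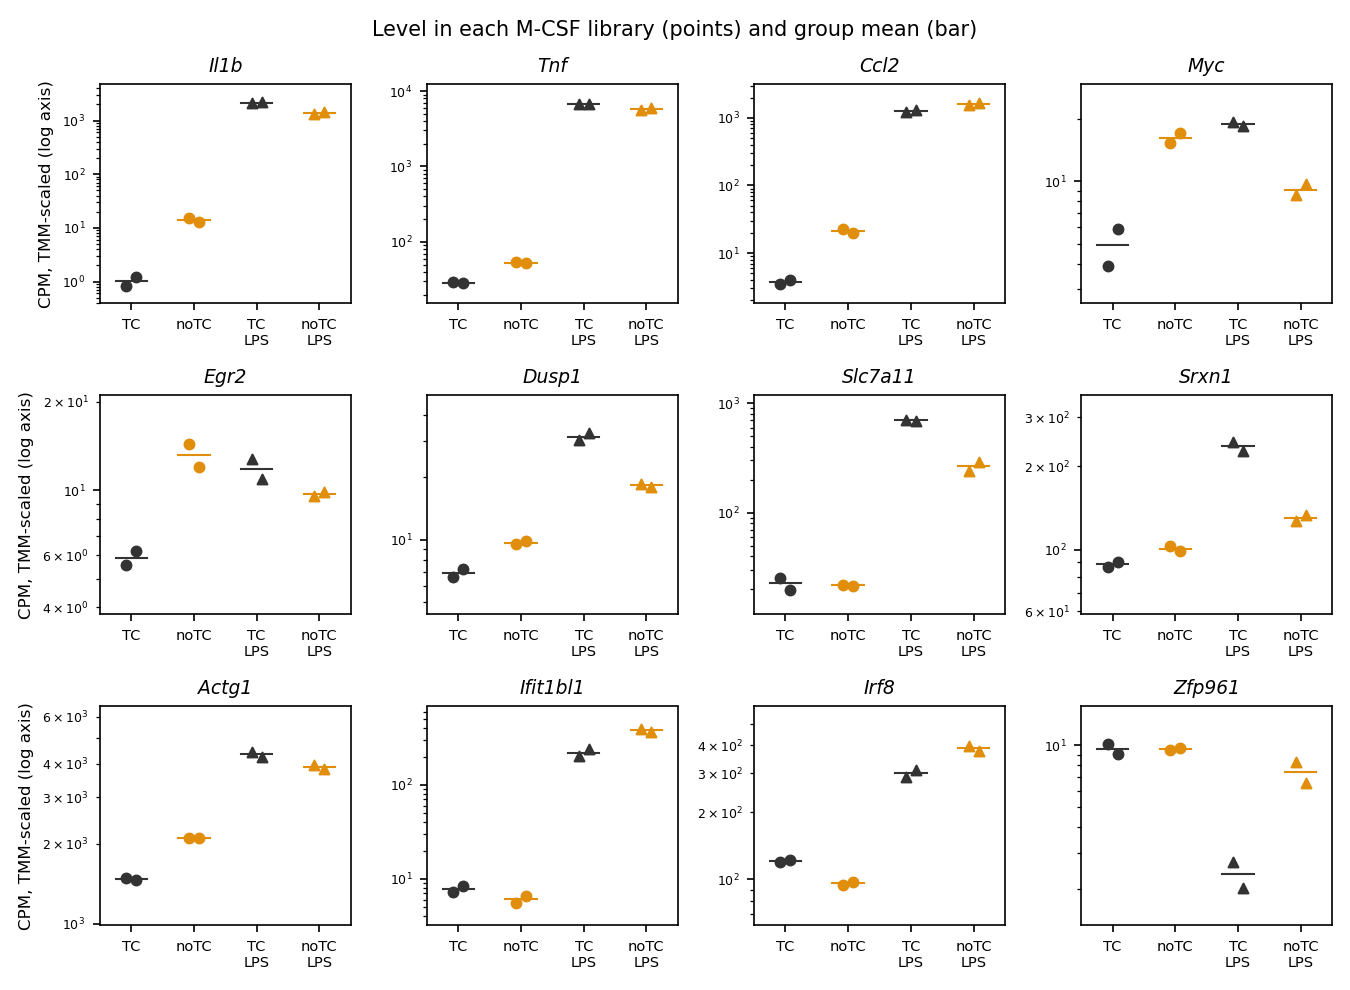
TMM-scaled CPM (log axis) of 12 genes in each of the 8 M-CSF libraries (points; circles untreated, triangles LPS; black TC, orange noTC) with the mean of each group as a bar. Myc crosses over between dishes, Slc7a11 and Srxn1 are close before LPS and lower on noTC after it, and Zfp961 falls further on TC than on noTC.

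The promoters of a few of these genes show the elements through which the named pathways are known to act, as RefSeq gives them for GRCm38.p6, from 250 bases before to 50 after the annotated start and on the strand of the gene. Of the 9864 member symbols 7981 had a window. Egr2 and Actg1 are printed because both were called lower on noTC and their windows hold the same CArG box, Dusp1 because it holds the cAMP response element TGACGTCA, Srxn1 because it holds an antioxidant response element of the form TGANTCAGC, which contains the AP-1 motif TGANTCA, and Ifit3, called in the other direction, because it holds 3 matches to TTCNNTTTC, the core of the interferon stimulated response element. Capitals mark the motif, and both strands were searched. The Egr2 window lies at chr10:67537619-67537918 on the plus strand, Actg1 at chr11:120348446-120348745 on the minus strand, Dusp1 at chr17:26508423-26508722 on the minus strand, Srxn1 at chr2:152105274-152105573 on the plus strand and Ifit3 at chr19:34583279-34583578 on the plus strand.
Egr2: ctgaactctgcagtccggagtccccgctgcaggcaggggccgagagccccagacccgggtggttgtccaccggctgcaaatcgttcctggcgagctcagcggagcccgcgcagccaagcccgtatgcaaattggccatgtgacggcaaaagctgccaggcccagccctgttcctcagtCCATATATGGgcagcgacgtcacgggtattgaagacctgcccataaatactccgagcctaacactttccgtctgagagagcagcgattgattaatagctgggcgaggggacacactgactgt
Actg1: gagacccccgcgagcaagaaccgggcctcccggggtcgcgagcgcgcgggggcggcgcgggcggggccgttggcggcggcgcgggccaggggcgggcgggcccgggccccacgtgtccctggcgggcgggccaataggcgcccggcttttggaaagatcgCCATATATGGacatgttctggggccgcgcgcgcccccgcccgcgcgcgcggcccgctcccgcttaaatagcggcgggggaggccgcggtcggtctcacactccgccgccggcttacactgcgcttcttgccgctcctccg
Dusp1: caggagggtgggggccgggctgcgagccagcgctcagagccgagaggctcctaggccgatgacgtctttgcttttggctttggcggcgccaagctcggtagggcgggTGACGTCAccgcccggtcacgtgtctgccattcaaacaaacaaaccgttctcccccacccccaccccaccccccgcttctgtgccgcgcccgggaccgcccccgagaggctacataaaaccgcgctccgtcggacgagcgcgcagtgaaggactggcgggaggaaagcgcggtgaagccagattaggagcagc
Srxn1: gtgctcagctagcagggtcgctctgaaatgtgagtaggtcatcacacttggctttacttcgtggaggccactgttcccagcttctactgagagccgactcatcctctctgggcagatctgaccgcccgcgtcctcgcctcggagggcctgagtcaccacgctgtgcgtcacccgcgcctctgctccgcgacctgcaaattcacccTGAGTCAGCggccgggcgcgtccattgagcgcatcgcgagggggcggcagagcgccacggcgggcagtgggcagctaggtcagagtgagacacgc
Ifit3: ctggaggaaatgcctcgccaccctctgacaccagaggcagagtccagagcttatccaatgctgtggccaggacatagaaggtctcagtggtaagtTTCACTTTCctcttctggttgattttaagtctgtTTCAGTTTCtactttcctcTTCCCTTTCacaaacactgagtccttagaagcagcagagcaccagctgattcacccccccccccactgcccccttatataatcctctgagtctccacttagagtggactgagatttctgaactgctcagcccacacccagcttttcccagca
Of 32851 windows of this length, 1.63% held a CArG box, compared with 1.21% of the windows of members, 2.61% of those of genes with a lower noTC response and 0.806% of those with a higher one. The cAMP response element stood in 1.79% of all windows, in 3.26% of those of members, in 3.41% for the lower and in 1.88% for the higher genes. For the antioxidant response element the shares were 1.19%, 1.05%, 1.71% and 1.21%, and for the core of the interferon stimulated response element 8.56%, 7.47%, 8.43% and 7.53%, in the same order of all, members, lower and higher. These shares describe the letters in the windows, the motifs were chosen with the results in view, and no test was made.

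NRF2 antioxidant genes had a lower noTC response in 12 of 23 members and a higher one in 0 (52.2% called, against 16.3% of all members). Their median was -0.18 in both computations. Srxn1 (ENSMUSG00000032802), the sulfiredoxin that repairs oxidised peroxiredoxins, had 86.5 and 90.5 CPM on TC and 103 and 99 CPM on noTC dishes before LPS, and 244 and 227 CPM on TC and 127 and 133 CPM on noTC dishes after it. LPS raised it on both dishes, and after LPS both noTC libraries were below both TC libraries, by -0.86 ± 0.05 (log2). The response was 1.41 ± 0.05 on TC and 0.37 ± 0.05 on noTC dishes, and the interaction was -1.05 ± 0.07 (SE, adjusted p = 1.17e-08). Hmox1, heme oxygenase 1, had 291 and 293 CPM on TC and 353 and 353 CPM on noTC dishes before LPS, and 540.1 and 473 CPM on TC and 319 and 354 CPM on noTC dishes after it. The response was 0.80 ± 0.06 on TC and -0.07 ± 0.05 on noTC dishes, and the interaction was -0.86 ± 0.08 (SE, adjusted p = 3.24e-07). Gsr, glutathione reductase, overlapped between dishes before LPS and not after it, with 81.1 and 75.8 CPM on TC and 79.6 and 80.9 CPM on noTC dishes before LPS, and 259 and 269 CPM on TC and 170.0 and 173 CPM on noTC dishes after it, and its interaction was -0.66 ± 0.07 (SE, adjusted p = 1.8e-06). Txnrd1, thioredoxin reductase 1, had an interaction of -0.64 (adjusted p = 3.06e-07), with both noTC libraries slightly above both TC libraries before LPS and below them after it. Slc40a1, Gclc, Prdx1, Gclm, Blvrb, Nfe2l2, Fth1 and Pgd were called lower with sizes from -0.58 to -0.18.

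Slc7a11 (ENSMUSG00000027737), the cystine importer that NRF2 and ATF4 both induce, had 25.3 and 19.9 CPM on TC and 21.7 and 21.6 CPM on noTC dishes before LPS, and 703 and 692 CPM on TC and 241 and 288 CPM on noTC dishes after it. The dishes overlapped before LPS, and after LPS every noTC library was below every TC library. The difference after LPS was -1.40 ± 0.07 (log2, noTC relative to TC). The interaction was -1.34 ± 0.12 (SE, adjusted p = 3.29e-07), and -1.04 (adjusted p = 1.95e-05) after the subtraction. On the list of ATF4 and unfolded protein response genes, 6 of 30 members were called lower and 3 higher (30% called, against 16.3% of all members). Cebpb, a basic leucine zipper factor of the LPS response, had 46.9 and 51.0 CPM on TC and 52.3 and 53.3 CPM on noTC dishes before LPS, and 154 and 139 CPM on TC and 78.6 and 78.9 CPM on noTC dishes after it, close before LPS and lower on noTC after it, with an interaction of -1.01 ± 0.08 (SE, adjusted p = 1.07e-07). Atf4, the factor that names the list, rose on TC and fell on noTC dishes, with -0.52 (adjusted p = 3.08e-05). Sesn2, a stress-induced regulator of mTORC1, went the other way with 0.51 (adjusted p = 0.042).

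Genes of the actin cytoskeleton were called lower for 15 of 43 members and higher for 4 (44.2% called, against 16.3% of all members). Their median was -0.08. Actg1 (ENSMUSG00000062825), gamma-actin, had 1483 and 1465 CPM on TC and 2113 and 2112 CPM on noTC dishes before LPS, and 4440 and 4253 CPM on TC and 3963 and 3833 CPM on noTC dishes after it. It was above on noTC before LPS, LPS raised it on both dishes, and it ended below on noTC without overlap. The interaction was -0.68 ± 0.05 (SE, adjusted p = 2.47e-08). Tpm4, a tropomyosin of non-muscle cells, had -0.62 (adjusted p = 4.18e-07), and Ezr, which links actin to the membrane, had -0.58 (adjusted p = 2.04e-05). Actb, Flna, Myh9 and Lcp1 were also called lower. Tpm1, a tropomyosin that is also on the heart muscle list, was called higher at 0.66 (adjusted p = 0.000109), with 49.0 and 43.6 CPM on TC and 52.9 and 53.7 CPM on noTC dishes before LPS, and 30.9 and 28.7 CPM on TC and 55.9 and 52.7 CPM on noTC dishes after it. After LPS it was lower on TC dishes. The level of heart muscle genes in M-TC stands beside this value, and its part in it was not tested.

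Of 33 integrin and adhesion genes, 7 were called lower and 2 higher (27.3% called, against 16.3% of all members). Vcl, vinculin of focal adhesions, had 43.1 and 37.8 CPM on TC and 53.4 and 52.1 CPM on noTC dishes before LPS, and 185 and 178 CPM on TC and 141 and 141 CPM on noTC dishes after it, above on noTC before LPS and below after it, and its interaction was -0.75 ± 0.08 (SE, adjusted p = 2.85e-06). Zyx, zyxin, had the same order with -0.60 (adjusted p = 2.52e-06). Cd44, the hyaluronan receptor, was above on noTC at both times and by less after LPS, with -0.65 (adjusted p = 8.65e-08). Itga4, the alpha chain of VLA-4, was called higher with 0.53 (adjusted p = 2.25e-05), from a lower level on noTC before LPS. Among matrix genes and proteases, 8 of 21 were called lower and 1 higher (42.9% called, against 16.3% of all members). Fn1, fibronectin, had 1.96 and 1.66 CPM on TC and 11 and 9.70 CPM on noTC dishes before LPS, and 12.2 and 13.2 CPM on TC and 17.9 and 16.7 CPM on noTC dishes after it, above on noTC at both times, and its interaction was -2.06 ± 0.20 (SE, adjusted p = 8.03e-07), or -1.45 after the subtraction. Mmp13, a collagenase, had 3.22 and 3.25 CPM on TC and 9.17 and 7.79 CPM on noTC dishes before LPS, and 1520 and 1667 CPM on TC and 906 and 960.4 CPM on noTC dishes after it. Its order was reversed by LPS, and the interaction of -2.14 ± 0.14 (SE, adjusted p = 6.22e-09) was -1.47 (adjusted p = 7.78e-06) after the subtraction. Plau, the urokinase plasminogen activator, fell on both dishes and further on noTC from a level that was 2.05 ± 0.07 higher (log2), with -0.91 (adjusted p = 7.82e-05). Plaur, its receptor, had -0.95 (adjusted p = 1.03e-06).

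Growth control genes had 11 of 25 members called lower and 4 higher (60% called, against 16.3% of all members). Ccnd2, cyclin D2, had 11.7 and 10 CPM on TC and 32.1 and 31.5 CPM on noTC dishes before LPS, and 253 and 284 CPM on TC and 328 and 336 CPM on noTC dishes after it, above on noTC at both times but by less after LPS. The interaction was -1.24 ± 0.10 (SE, adjusted p = 8.65e-08). Ccnd1, cyclin D1, fell on both dishes and was not called, with -0.23 (adjusted p = 0.193). Cdkn1a, the inhibitor p21, had -0.88 (adjusted p = 2.48e-08), Ccne1, cyclin E1, had -0.91 (adjusted p = 0.00456), and E2f8 had -0.85 (adjusted p = 4.75e-06). Rb1, Ccng1, Cdkn1c and Cdkn1b were called higher. DNA replication genes were called lower in 17 of 54 members and higher in 1 (33.3% called, against 16.3% of all members), with a median of -0.27. Timeless, Rfc3, Orc1 and Mcm10 led them, with -1.14, -0.83, -0.81 and -0.66. At the median, replication genes were 0.83 (log2) higher on noTC before LPS and 0.52 higher after it. Mitosis genes, also higher on noTC by a median of 0.59 before and 0.52 after LPS, were called lower in 7 of 64 and higher in 0. These calls were 10.9% of the list, near the 9.32% of all members called lower, and the list's median was -0.05. Mki67 had -0.59 (adjusted p = 4.18e-07) and Kif4 had -0.43 (adjusted p = 0.00741).

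Among metabolic genes, glycolysis and hypoxia genes were called lower for 9 of 26 members and higher for 0 (34.6% called, against 16.3% of all members). Slc2a1, the glucose transporter GLUT1, had 33.7 and 35.3 CPM on TC and 47.3 and 53.7 CPM on noTC dishes before LPS, and 164 and 157 CPM on TC and 128 and 133 CPM on noTC dishes after it, above on noTC before LPS and below after, with -0.85 (adjusted p = 1.19e-06). Pfkfb3, which sets the level of the activator of phosphofructokinase, had 27.3 and 27.0 CPM on TC and 23.6 and 25.9 CPM on noTC dishes before LPS, and 224 and 221 CPM on TC and 116 and 117 CPM on noTC dishes after it, close before LPS and lower on noTC after it, with -0.81 (adjusted p = 1.06e-06). Slc16a3, the lactate exporter, had -0.78 (adjusted p = 1.26e-05), and Pfkp, a phosphofructokinase, had -0.53 (adjusted p = 1.92e-05). Sterol synthesis genes and the LDL receptor were called lower for 11 of 24 and higher for 0 (45.8% called), with a median of -0.19. Pmvk, Cyp51 and Sc5d were among them with -0.56, -0.47 and -0.43, and LPS raised all 3 on both dishes.

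Interferon stimulated genes were called in both directions. Of 60 members, 23 were called lower and 6 higher (48.3% called, against 16.3% of all members), with a median of -0.14. After the subtraction 15 were lower and 11 higher, with a median of -0.11. The IFIT genes, which bind viral RNA, were among those called higher. Ifit2 had 224 and 245 CPM on TC and 199 and 206 CPM on noTC dishes before LPS, and 4835 and 5531 CPM on TC and 5645 and 5785 CPM on noTC dishes after it, lower on noTC before LPS and higher after it, with an interaction of 0.35 ± 0.07 (SE, adjusted p = 0.00304). Ifit3, whose promoter is printed above, had 0.31 (adjusted p = 0.00612). Ifit3b had 0.78 (adjusted p = 3.59e-05) and Ifit1bl1 had 7.22 and 8.45 CPM on TC and 5.57 and 6.53 CPM on noTC dishes before LPS, and 203 and 238 CPM on TC and 395 and 369 CPM on noTC dishes after it, with an interaction of 1.15 ± 0.15 (SE, adjusted p = 3.38e-05), and 1.33 after the subtraction. Ifit3 and Ifit3b are near-identical copies, so reads could have been divided between them. Ifit1 was not called, with 0.12 (adjusted p = 0.156), and was called after the subtraction with 0.31 (adjusted p = 0.00124). Iigp1, an immunity-related GTPase, had 0.91 (adjusted p = 0.00296), and 1.22 after the subtraction. Oasl1, an inhibitor of IRF7 translation, went the other way with -0.82 (adjusted p = 3.77e-05), -0.62 after the subtraction, and Tap1, Mx1, Isg15, Usp18 and others had lower calls of smaller size. In the list of regulators, Irf8 (ENSMUSG00000041515), a lineage factor of macrophages, had 119 and 123 CPM on TC and 93.9 and 97.8 CPM on noTC dishes before LPS, and 289 and 309 CPM on TC and 397 and 379 CPM on noTC dishes after it. It was lower on noTC before LPS and higher after it without overlap, and its interaction was 0.71 ± 0.07 (SE, adjusted p = 5.74e-07). Irf1 had 0.30, whereas Irf7 had -0.56 and the kinase Jak1 -0.28.

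Receptors had 9 of 36 members called higher and 7 lower (44.4% called, against 16.3% of all members). Cxcr4, the receptor of Cxcl12, had 139 and 133 CPM on TC and 75.8 and 83.2 CPM on noTC dishes before LPS, and 1.74 and 1.85 CPM on TC and 2.1 and 2.81 CPM on noTC dishes after it. It fell to a few CPM on both dishes, from a lower start on noTC, so that the fall was smaller there, with an interaction of 1.22 ± 0.24 (SE, adjusted p = 0.00178). Ccr2, the receptor of Ccl2, had 0.96 (adjusted p = 0.0242). Il4ra, the IL-4 receptor alpha chain, had 50.8 and 52.5 CPM on TC and 34.7 and 35.8 CPM on noTC dishes before LPS, and 141 and 115 CPM on TC and 55.4 and 49.7 CPM on noTC dishes after it, lower on noTC at both times, and its interaction was -0.74 ± 0.11 (SE, adjusted p = 0.000162). Fpr1, a receptor of bacterial formyl peptides, had -0.94 (adjusted p = 0.000109), and -0.67 after the subtraction. Csf1r, the receptor of M-CSF itself, was not called, at 0.01 (adjusted p = 0.949), and lay at 3155 and 3064 CPM on TC and 2328 and 2421 CPM on noTC dishes before LPS, and 2999 and 2851 CPM on TC and 2218 and 2275 CPM on noTC dishes after it. Among scavenger and phagocytic receptors, 4 of 33 were called lower and 3 higher, 21.2% in all where 16.3% of all members were called. Msr1 and Marco, class A scavenger receptors, had -0.70 (adjusted p = 6.9e-07) and -1.01 (adjusted p = 0.00496), the Fc receptor Fcgr2b had -0.37 (adjusted p = 0.00228), and Mertk, a receptor for apoptotic cells, had 55.8 and 54.1 CPM on TC and 20.3 and 25.4 CPM on noTC dishes before LPS, and 86.3 and 82.3 CPM on TC and 50.7 and 53.0 CPM on noTC dishes after it and 0.55 ± 0.11 (SE, adjusted p = 0.0019). Ciita, the master regulator of MHC class II genes, was called higher with 0.81 (adjusted p = 0.00878). Of 16 purine and metabolite receptors, 7 were called lower and 3 higher (62.5% called). Adora2b and Adora3, adenosine receptors, had -1.63 (adjusted p = 0.00103) and -1.88 (adjusted p = 0.0247) at low levels before LPS, with -1.52 and -1.87 after the subtraction, and P2ry14, a UDP-glucose receptor, had 0.75 (adjusted p = 0.00025).

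Of the 685 genes with a higher noTC response, 487 had a response below 0 on TC dishes. Zfp961, a zinc finger gene, had 10.2 and 9.06 CPM on TC and 9.46 and 9.72 CPM on noTC dishes before LPS, and 2.71 and 2.03 CPM on TC and 8.27 and 6.55 CPM on noTC dishes after it. The dishes overlapped before LPS, and the response was -2 ± 0.18 on TC and -0.37 ± 0.14 on noTC dishes. The interaction was 1.63 ± 0.23 (SE, adjusted p = 8.33e-05). Card6 had the same order, with 4.90 CPM on TC and 4.22 on noTC dishes before LPS, and 1.65 and 3.96 after it and 1.49 (adjusted p = 0.00249), and Znrf3, a ligase that removes Wnt receptors, had 1.35 (adjusted p = 0.00572). Pde2a, a cyclic nucleotide phosphodiesterase, had 17.3 and 17.5 CPM on TC and 6.62 and 6.75 CPM on noTC dishes before LPS, and 17.8 and 9.21 CPM on TC and 14.2 and 17.3 CPM on noTC dishes after it. It was lower on noTC before LPS, and the replicates of M-TC-LPS lay apart and spanned those of M-noTC-LPS. Its interaction was 1.58 ± 0.26 (SE, adjusted p = 0.000294). Abcd2, a peroxisomal fatty acid transporter, Eef2k, the kinase of elongation factor 2, and Cpeb1, an RNA-binding protein, had 1.16, 1.28 and 1.32. Abcg1, which exports cholesterol, had 0.48 (adjusted p = 0.000238). Genes whose symbol is Zfp and a number, a group picked after its values were seen, counted 24 called higher and 11 lower among 255 members, 9.41% called higher where 6.94% of all members were and 13.7% called in all where 16.3% were, with a median of 0.15. Ggta1, which makes the alpha-gal sugar, had 101 and 99.4 CPM on TC and 103 and 107 CPM on noTC dishes before LPS, and 100.1 and 87.5 CPM on TC and 44.6 and 40.9 CPM on noTC dishes after it. It was close before LPS and fell on noTC dishes, with an interaction of -1.21 ± 0.09 (SE, adjusted p = 2.48e-08).

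Some large values belong to genes whose reads could be shared with near-identical or overlapping genes, and these are uncertain. Gm28048 had the largest positive value, 3.89 ± 1.13 (SE, adjusted p = 0.0263), but its libraries disagreed within groups, with 19.9 and 21.8 CPM on TC and 0 and 3.69 CPM on noTC dishes before LPS, and 0 and 18.2 CPM on TC and 4.35 and 21.6 CPM on noTC dishes after it. Srp54b, a copy of the signal recognition particle gene Srp54, had 4.74 and 24.0 CPM on TC and 36.9 and 33.9 CPM on noTC dishes before LPS, and 69.6 and 76.6 CPM on TC and 60.0 and 59.4 CPM on noTC dishes after it and -1.56 (adjusted p = 0.00899), and its M-TC libraries lay far apart. Gm14698 had 1.39 (adjusted p = 0.000672), Gm4724 -1.53 (adjusted p = 0.00951) and Bcl2a1d, one of the A1 family of survival genes, -1.15 (adjusted p = 0.000256), or -0.68 after the subtraction.

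The remaining lists are given by their counts, beside which 6.94% of all members were called higher and 9.32% lower. Of 59 cytosolic ribosomal protein genes 2 were called, both higher, Rps19 at 0.24 and Rps24 at 0.22. Oxidative phosphorylation genes had 2 called higher, Ndufs4 and Ndufv2, and 1 lower, the cytochrome Cycs at -0.52, of 49. Lysosomal genes had 2 called in each direction of 40. Ribosome biogenesis genes had 3 higher and 7 lower of 44, cell death genes 3 higher and 6 lower of 30, antigen presentation genes 1 higher and 4 lower of 22, fatty acid and LXR genes 2 higher and 3 lower of 24, and clock genes 2 higher and 1 lower of 11. Of the markers of other cells, fibroblast, lymphocyte and mast cell lists had no member, dendritic cell markers had 1, not called, and neutrophil markers had 2, with Csf3r called lower. The summed neutrophil markers were 119.7 and 132.2 CPM in M-TC-LPS and 54.3 to 73.1 CPM in the other 6 libraries, and their part in the results was not tested. In M-TC-LPS the sum was mostly Csf3r, Lcn2 and Mmp8, with group means of 80.0, 32.9 and 12.3 CPM. Ly6g, Mpo, Elane and Retnlg were at 0 CPM in every M-CSF group. Macrophage markers, 5 of 10 not called, had 4 called lower, among them Cd14, Spi1 and Fcgr1, and Mertk higher.

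Whether the interactions differed from those of other macrophages was asked by taking the same difference in GM-CSF macrophages (GM-TC, GM-noTC, GM-TC-LPS and GM-noTC-LPS, 8 libraries). M minus GM was tested in one fit over 16 libraries. The GM-CSF cells came from marrow grown with 20 ng/ml GM-CSF in place of M-CSF. According to the paper they were also seeded at a higher density, so growth factor and density cannot be told apart. The interaction in GM-CSF cells passed for 77 members, against 0.783% of the 12514 genes tested there. Of the 1605 genes called in M-CSF cells by the fit of 8 libraries, 49 passed in GM-CSF cells, 41 of them in the same direction. In the fit of 16 libraries the M-CSF interaction passed for 358 members higher and 893 lower. M minus GM passed for 309 members, 73 higher and 236 lower in M, against 2.61% of genes tested in either direction, and 277 of these were among the 1605. That overlap is partly built in, because M minus GM contains the M-CSF interaction of the same libraries. GM-noTC carried a low level that GM-TC lacked as M-noTC did, 0.675% over 15 genes. When it was subtracted in both, 279 members passed, 267 of them being the same genes in the same direction.

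In M minus GM, 6 of 22 immediate early and AP-1 genes were called lower in M and 0 higher, 5 of 17 feedback genes lower and 1 higher, and 7 of 23 NRF2 antioxidant genes lower and 0 higher, against 3.13% of all members in either direction. Fos was among those that did not pass, at -0.69 ± 0.31 (adjusted p = 0.292). Other lists also lay above 3.13%. Among them, 6 of 21 matrix and protease genes were called lower and 0 higher. Of 15 cytokines 3 were lower and 1 higher, and of 60 interferon stimulated genes 13 were higher and 0 lower. Lists with no call were fatty acid and LXR, clock, ribosomal protein and ribosome biogenesis genes. Myc had an interaction of -2.83 in M-CSF and -0.68 in GM-CSF cells, a difference of -2.14 ± 0.26 (adjusted p = 3.08e-05). Dusp1 had -1.31 and 0.07, a difference of -1.37 ± 0.23 (adjusted p = 0.00139). For Egr2 the values were -1.47 and -0.20, with -1.27 ± 0.20 (adjusted p = 0.000579). Slc7a11 had -1.38 and 0.12, with -1.50 ± 0.18 (adjusted p = 2.25e-05), and Srxn1 had -1.09 and 0.01, with -1.10 ± 0.12 (adjusted p = 4.45e-06). After the subtraction the differences were -2.14 (adjusted p = 0.000141) for Myc and -1.24 (adjusted p = 0.000627) for Slc7a11. Ggta1 had -1.25 and 0.05, with -1.30 ± 0.13 (adjusted p = 2.08e-06). In the other direction, Zfp961 had 1.59 and -0.09, with 1.68 ± 0.34 (adjusted p = 0.00814).

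For several inflammatory genes the comparison depended on the subtraction. Il1b had -4.45 and -1.87, a difference of -2.57 ± 0.23 (adjusted p = 3.11e-07), and -0.91 (adjusted p = 0.428) after the subtraction. Cxcl10 had -0.71 and -5.65, a difference of 4.94 ± 0.21 (adjusted p = 3.19e-12), and 0.65 (adjusted p = 0.781) after it. Ifit2 had 0.31 and -1.63, with 1.94 ± 0.16 (adjusted p = 1.01e-07), and 0.53 (adjusted p = 0.17) after it. Tnf, called in the same direction in both, did not pass, with 0.48 ± 0.15 (adjusted p = 0.107), and turned to -0.48 (adjusted p = 0.367) after it. Ptgs2 did not pass at first, with -0.76 ± 0.32 (adjusted p = 0.248), and passed after it with -1.89 (adjusted p = 0.027). Il1rn and Mmp13 passed in both computations, at -1.17 ± 0.12 (adjusted p = 4.45e-06) and -1.85 ± 0.16 (adjusted p = 1.86e-07) at first and at -0.92 (adjusted p = 0.000431) and -1.20 (adjusted p = 0.000667) after it. Etv5, an ERK target, was called lower in both kinds of cell, at -1.36 and -1.03, with a difference of -0.33 ± 0.22 (adjusted p = 0.534).

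**Figure D5:**
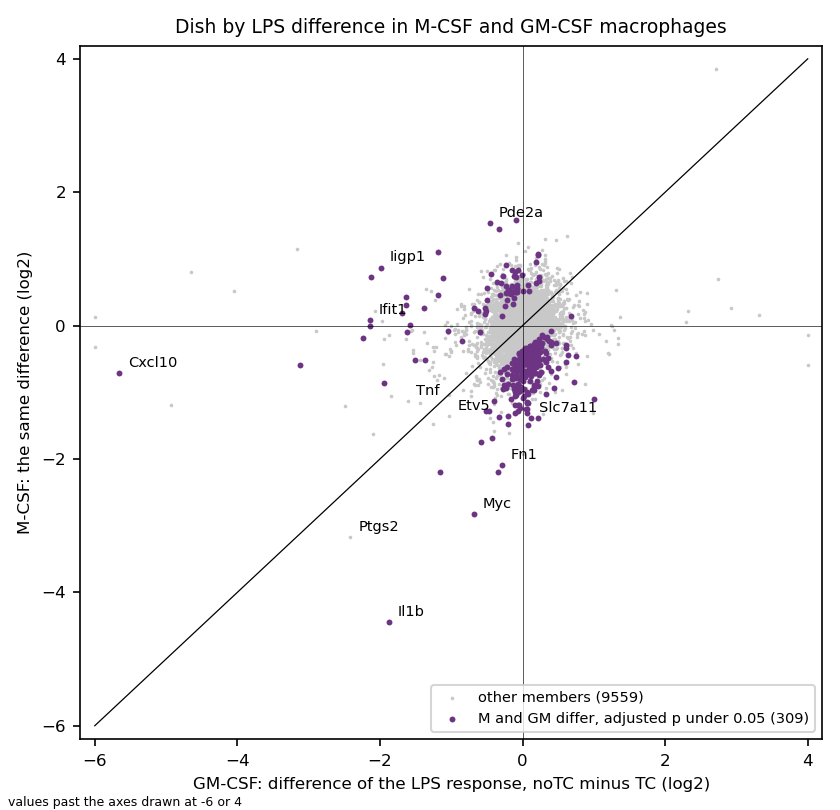
Interaction of each member (log2, noTC minus TC) in GM-CSF macrophages (horizontal) and M-CSF macrophages (vertical), with the line of equal values. The 309 members for which the 2 differ (purple) lie mostly below 0 in M-CSF and near 0 in GM-CSF cells, apart from Cxcl10, Ifit1 and Iigp1 at the left. Values are from the deposited counts. After the subtraction Cxcl10 and Iigp1 no longer differed by the test, and the difference for Ifit1 was smaller.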

How the data were processed

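Polyadenylated RNA of cultured BMDMs was sequenced on an Illumina NovaSeq. HISAT2 was the authors' aligner and RSEM their quantifier. The values they deposited and used here are expected counts, not normalized, which were rounded to whole counts. The submitters' notes also name fastp 0.18.0, Bowtie2 2.2.8 and StringTie 1.3.1. The genome build and annotation are not given in the sources used here. The RSEM step divides reads among similar genes, so near-identical copies are uncertain.

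Groups came from the sample labels. With edgeR 4.0.16 in R 4.3.3, the 8 M-CSF libraries were filtered by group, scaled with TMM factors and tested for the interaction by the quasi-likelihood test, without a replicate block, with Benjamini-Hochberg adjustment over the 11835 tested genes and a threshold of 0.05. An SE is the log2 value divided by the root of its F statistic. The common biological coefficient of variation was 3.64%, with 4 residual degrees of freedom. CPM of single genes are TMM scaled, and the minimum of 1 CPM is by library size. The M minus GM test used all 16 libraries. An exact permutation of 2 against 2 libraries cannot give a two-sided p below 0.333. On simulated counts of the M-CSF interaction over 11835 genes, edgeR called 92 of 100 genes changed by 1 (log2), 99 of 100 changed by 2, and 5 of 9715 unchanged genes. Those counts were drawn as independent libraries with the spread estimated from these data, so few false calls follow partly from the set-up. Changes below 1, the size of most called interactions, were not simulated.

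Named genes are the 12 per direction with the largest interaction that were called before and after the subtraction and whose ranges did not overlap, up to 4 called genes per list, 3 per class and direction, and a fixed set of cytokine, interferon and receptor genes. Not every gene named by this rule is printed, and other symbols only list members that were called. The genes, the 37 lists and the tests were chosen with earlier results of these data known. Alternatives were DESeq2 1.42.0, DESeq2's size factors, library size only, no filter, a replicate block, the study's fold threshold of 2 with unadjusted p, all 16 libraries in the fit, another CPM minimum, the subtraction and leaving out each replicate. Leaving out the heart muscle genes was chosen after seeing the data.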

Additional observations from a re-analysis of the deposited data

Results flagged for a closer look

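The LPS response differed between TC and noTC dishes in M-CSF macrophages for 1605 genes, each by the edgeR test of the interaction itself. A further comparison asked which of these interactions differed between M-CSF and GM-CSF macrophages, again by a test of the difference (adjusted p under 0.05 over all 12514 genes). Values are M minus GM on the log2 scale. For the growth, immediate early and feedback genes, it was -2.14 for Myc, -1.27 for Egr2, -1.20 for Fosl2, -0.95 for Cebpb, -1.37 for Dusp1, -1.07 for Dusp4, -1.22 for Dusp5, -0.80 for Spred2, -0.78 for Ccnd2, -0.98 for Ccne1, -0.83 for Cdkn1a, -0.76 for E2f8 and -0.85 for Mcm10. In stress and antioxidant genes, it was -1.50 for Slc7a11, -1.10 for Srxn1, -0.85 for Hmox1, -0.75 for Gsr, -0.72 for Txnrd1, -0.79 for Atf4 and -1.14 for Gdf15. In cytoskeleton, adhesion and matrix genes, it was -0.50 for Actg1, -0.53 for Tpm4, -0.58 for Ezr, -0.73 for Zyx, -0.38 for Cd44, 0.70 for Itga4, -1.81 for Fn1, -1.85 for Mmp13, -0.84 for Plau and -0.93 for Plaur. For the cytokines, chemokines and LPS pathway genes, it was -2.57 for Il1b, -1.17 for Il1rn, -1.03 for Ccl2, 4.94 for Cxcl10, -0.52 for Cd14, -0.73 for Tnip3 and 0.94 for Nfkbiz. Interferon genes had 2.21 for Ifit1, 2.30 for Ifit1bl1, 1.94 for Ifit2, 1.65 for Ifit3, 2.86 for Ifit3b, 2.86 for Iigp1, 1.09 for Oasl1 and 0.44 for Irf8. Metabolic genes had -0.63 for Ass1, -1.37 for Ptges, -1.14 for Slc7a2, -0.64 for Slc2a1, -0.59 for Pfkp, -0.74 for Pmvk, -0.46 for Cyp51, -0.49 for Sc5d and -0.70 for Cycs. Receptors had -1.25 for Adora2b, -0.95 for Fpr1, -0.70 for Il4ra, -0.73 for Msr1, -0.57 for Fcgr2b, 1.15 for Ccr2 and 0.61 for Mertk. Other genes had -1.13 for Bcl2a1d, 1.78 for Card6, 1.21 for Ciita, -1.30 for Ggta1, 1.99 for Pde2a and 1.68 for Zfp961. After the subtraction of the low level that both untreated TC groups lacked, Il1b, Cxcl10, Ifit2, Ifit3, Ifit3b, Ifit1bl1, Iigp1, Oasl1, Nfkbiz, Slc7a2, Fn1, Adora2b, Ccne1 and Bcl2a1d no longer passed. Of these, Oasl1 turned to -0.90 and Slc7a2 to 0.23. Ifit1 still passed, but at 0.54 (adjusted p = 0.0329) in place of 2.21.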

How the results depend on the processing

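Without TMM, scaled by library size only, the median response of members moved by -0.75 (log2) on TC and -0.70 on noTC dishes, so that 1718 genes rose and 7392 fell on TC and 1651 rose and 7437 fell on noTC dishes, while the median interaction moved by 0.06. Then 1070 interactions were called higher and 648 lower, 62.3% against 42.7% of calls being higher, and M minus GM gave 152 higher and 103 lower. DESeq2's test gave 347 higher and 783 lower, all 16 libraries in the fit 358 higher and 893 lower, and no filter 117 higher for M minus GM. At the study's 2-fold threshold with an unadjusted p there were 21 higher and 60 lower interactions, 75 lower for M minus GM, and 1598 up and 1565 down on TC and 1451 up and 1327 down on noTC dishes. The causes of these moves were not tested beyond what each setting changes.

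Same-numbered replicates showed no clear shared deviation over the 6 pairs of groups (correlations of -0.14 to 0.16). A small shared deviation could go unseen in these values. Whether same-numbered replicates shared a mouse or a culture day was not tested. With the replicate block 748 interactions were called higher and 975 lower. Leaving out 1 M-CSF replicate leaves its group with a single library, assumed to vary like the others. The interaction calls then ranged from 343 to 640 higher and from 613 to 1229 lower. Higher calls were 343 and 449 without M-noTC replicates 1 and 2, 411 and 434 without those of M-TC, 390 and 421 without those of M-noTC-LPS, and 403 without M-TC-LPS replicate 1, and lower calls were 613 without M-noTC replicate 1. M minus GM ranged from 42 to 318 higher and from 132 to 465 lower when 1 of 16 libraries was left out, 318 higher being without GM-TC replicate 1 and 465 lower without either GM-TC replicate.

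Of 107 called genes named with the interaction, 75 kept their call under every setting other than the 2-fold threshold. The subtraction turned Cxcl10 to 0.347, Slc7a2 to 0.0945, and, among genes that were not called, Arg1 to 0.247 and Il23a to 0.925. Csf1r, near 0, was -0.0361 with all 16 libraries, -0.0123 with DESeq2's size factors, -0.012 with its test and -0.0153 without the filter, and -0.0599 to 0.0359 with a replicate left out. Leaving out the heart muscle genes gave 693 higher and 918 lower. For genes near the minimum of 1 CPM, depth limits the precision of the interaction.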
